A study of Homo sapiens with 20 samples.

Results

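The PEA3 ETS transcription factors ETV1, ETV4 and ETV5 and the ETS factor FEV were followed through 20 RNA-seq libraries of HEL cells, a human erythroleukaemia line with a mutant JAK2 kinase. The members were selected on their counts in the libraries of the JAK2 inhibitor persistent lines against parental cells, as genes that rise strongly in both lines, so that rise is given below as a description without a test. They are 4 of 55093 genes in the tables of BCI and of BI-D1870 treatment and 4 of 34213 genes in the table of persistent cells. Each of the 10 groups held 2 libraries. One table covers 1 µM BCI, which inhibits the ERK phosphatase DUSP6 and also DUSP1, and its solvent DMSO, both at 4 h and at 48 h. Another covers 24 h of DMSO, of 10 µM BI-D1870, which inhibits RSK kinases, or of that dose together with 1 µM BCI. The last covers parental cells and the lines RuxP (persistent in ruxolitinib) and FedP (persistent in fedratinib), which were derived by long culture with the JAK2 inhibitor. For that culture, the dose, the presence of inhibitor at harvest and the number of clones behind a line were not given in the sources used here. Separate cultures are not stated for the replicates, and the p-values therefore reflect the spread between libraries, which may be technical.

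PEA3 factors are activators that bind GGAA motifs and are phosphorylated by ERK, and their transcripts are widely used as readouts of RAS-ERK signalling. The repressor CIC keeps PEA3 genes low until ERK activity relieves it, and the COP1 ubiquitin ligase complex degrades the proteins. FEV, also called PET1, belongs to the ERG and FLI1 branch of the ETS family and is best known as the selector of serotonin neurons. BCI removes a brake on ERK, whereas BI-D1870 acts on kinases that ERK activates.

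All 4 genes lie on the minus strand of GRCh38: ETV1 (ENSG00000006468) at chr7:13891228-13991425, ETV4 (ENSG00000175832) at chr17:43527844-43579620, ETV5 (ENSG00000244405) at chr3:186046308-186110318 and FEV (ENSG00000163497) at chr2:218981087-218985657. Promoter windows from 250 bases before to 50 after the start were read from RefSeq on GRCh38.p14 for ETV1 and FEV and searched on both strands for the CIC octamers TGAATGAA and TGAATGGA, the AP-1 motif TGANTCA, the cyclic AMP response element TGACGTCA and the ETS motif CCGGAAGT. ETV4 and ETV5 had no entry in the promoter reference used, so their promoters were not searched. The 6 windows of ETV1 and 1 window of FEV held 1 match, which overlapped no other motif: a CIC octamer 125 bases before the start of the ETV1 window farthest upstream. The 250 bases before that start, chr7:13991426-13991675 on the minus strand, lie outside the annotated gene and are shown because CIC is the textbook repressor of this gene family, with the octamer in capitals:
ETV1: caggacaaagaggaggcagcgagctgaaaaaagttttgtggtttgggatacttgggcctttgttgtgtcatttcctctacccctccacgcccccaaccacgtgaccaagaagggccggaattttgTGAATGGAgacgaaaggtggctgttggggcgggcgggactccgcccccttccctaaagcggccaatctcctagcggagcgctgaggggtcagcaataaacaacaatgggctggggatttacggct
Either octamer occurred in 2.63% of 35116 promoter windows of 300 bases, and TGAATGGA alone in 1.03%. The other motifs searched occurred in 7.71% (AP-1), 1.85% (the response element) and 4.14% (ETS) of windows, and none was found in the windows of ETV1 or FEV. These shares are per window, and a search of several windows for several motifs makes some match likelier than any 1 share. A match of letters is a description and not a bound site.

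Levels are CPM, counts scaled by effective library size within each table. Depth was 51799814 to 84452743 counts per library, so that 3 counts, the most that a count of 0 allows, stood for 0.0351 to 0.0604 CPM by counting error alone. Differences below are log2 fold changes, and a gene passed at an edgeR quasi-likelihood adjusted p under 0.05 over all genes of its table. The parental libraries differed from each other more than any other pair, and the members' ratios to them are given with each left out. Erythroid markers summed to 1265 to 4941 CPM and megakaryocyte markers to 1252 to 4080 over the libraries. Epithelial and stromal markers summed to at most 1.53 CPM. Lymphoid markers summed to 4.91 to 28.9 CPM, mostly CD2 (up to 22.0 CPM) and CD79A (up to 7.88 CPM), while the T cell gene CD3D had 0 to 4 counts.

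In the persistent table the members lay near the detection limit in parental cells, apart from ETV5. FEV had 16 and 4 counts in the parental libraries (0.278 and 0.0775 CPM), 17.3 and 26.7 CPM in RuxP and 38.7 and 40.5 CPM in FedP. The ratio of mean CPM to parental cells was 124 in RuxP and 222 in FedP. ETV4 had 11 and 4 counts in parental cells (0.191 and 0.0775 CPM), 13.2 and 7.58 CPM in RuxP and 15.1 and 13.4 CPM in FedP, ratios of 77.1 and 106. ETV5 was the member already present in parental cells, at 4.98 and 4.57 CPM, and reached 21.6 and 23.3 CPM in RuxP and 36.8 and 37.2 CPM in FedP. Its ratios were 4.70 and 7.76. ETV1 was the least abundant, with 12 and 10 counts in parental cells (0.209 and 0.194 CPM), 3.68 and 2.09 CPM in RuxP and 1.68 and 2.10 CPM in FedP, ratios of 14.3 and 9.37.

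Both libraries of each line lay above both parental libraries for all 4 members, which is what the choice of members fixes. In the fit of the whole table, 6.44% of genes tested passed in RuxP (4.28% higher) and 6.63% in FedP (3.84% higher and 2.79% lower). The members' own calls in these comparisons are left out, because the choice of members fixes them. Both comparisons share the parental libraries. Those libraries set the size for FEV: its log2 ratio in RuxP was 6.90, 8.14 without parental replicate 1 and 6.29 without parental replicate 2, and in FedP 7.75, 8.96 and 7.15. For ETV4 it was 6.22 in RuxP, 7.05 without parental replicate 1 and 5.73 without parental replicate 2, and in FedP 6.68, 7.49 and 6.21. With either left out, ETV5 lay between 2.16 and 2.32 in RuxP and between 2.90 and 3.02 in FedP, and ETV1 between 3.76 and 3.91 and between 3.17 and 3.27. FEV, ETV5 and ETV4 did not overlap between the lines and were higher in FedP, as were 40.3% of all genes tested (76% did not overlap in either direction), while ETV1 overlapped. Between the lines 0 of 4 members passed, with 1.39% of all genes (0.232% higher and 1.16% lower in FedP). The choice of members used these libraries too, so this count is a description. The number of genes called between the lines also depended strongly on the fit, as given in the last section. In bulk RNA, fewer cells with a transcript and less transcript per cell cannot be told apart.

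**Figure D1:**
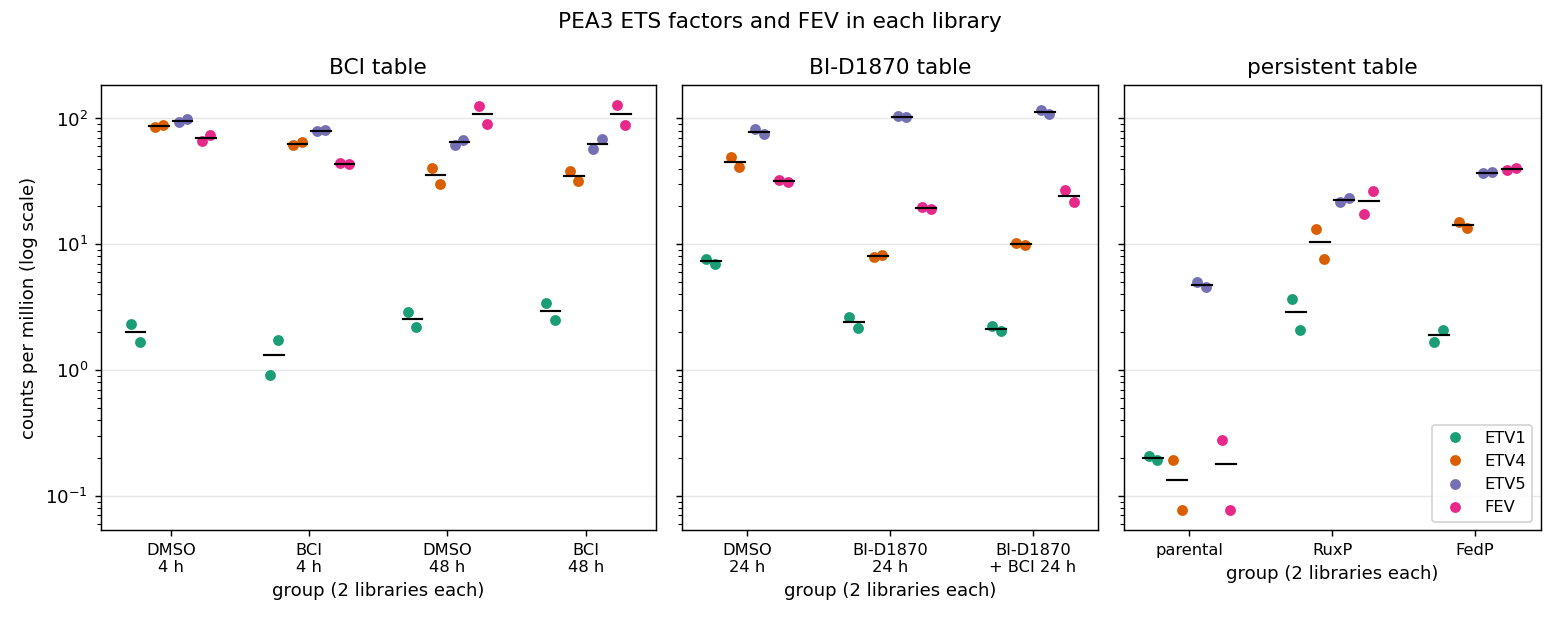
Level of each member in every library, in CPM on a log axis, with 1 point per library and a bar at the mean of each group of 2. FEV and ETV4 are under 0.3 CPM in parental cells and above 7 CPM in every other library of the 3 tables, while ETV1 stays under 8 CPM throughout.

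Parental cells also stood far below the DMSO-treated cells of the other tables. The tables were scaled separately and share no libraries, so these ratios were not tested. The lowest of the 3 DMSO group means was 263 times the parental mean for ETV4, 179 times for FEV and 13.5 times for ETV5. For ETV1 it was 9.90 times. Without parental replicate 1 the ratio was 457 for ETV4 and 411 for FEV, and without parental replicate 2 it was 185 and 114. For ETV5 it lay between 13.0 and 14.1 with either left out, and for ETV1 between 9.54 and 10.3. Of 10097 genes with at least 4 CPM in each DMSO group, 58 (0.574%) were at least 10-fold lower in parental cells (85 and 53 without parental replicate 1 and 2), a limit chosen after the values were seen. ETV4, ETV5 and FEV were 3 of these 58, and the rule that chose them used the parental libraries too. Among 9 ERK output genes at 4 CPM or more, 8 were lower in parental cells, where 53.6% of all such genes were. The phosphatase gene DUSP6 (22.3 CPM in the lowest DMSO group against 1.69) and the cyclin gene CCND1 (6.52 against 0.453) were also past 10-fold, DUSP6 at 8.23 times without parental replicate 1 and 33.8 times without parental replicate 2. The members' levels in the persistent lines thus lay below those of DMSO-treated cells for ETV4 (10.4 and 14.2 against 35.4 to 86.8 CPM) and ETV5 (22.5 and 37.0 against 64.7 to 96.2 CPM). For FEV, FedP (39.6 CPM) lay within the range of the DMSO groups (31.9 to 108 CPM) and RuxP (22.0 CPM) below it. For ETV1, RuxP (2.88 CPM) lay within that range (1.99 to 7.31 CPM) and FedP (1.89 CPM) slightly below it. The FedP libraries of ETV1 overlapped those of DMSO at 4 h (1.68 and 2.10 against 2.32 and 1.67 CPM).

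The share of all ETS transcripts that came from the 4 members restates the same counts on a scale per length, CPM per kilobase of exon. Its step from parental to persistent cells is set by the choice of members. Over 28 ETS genes, the members made up 0.146% and 0.178% of the summed level in parental cells, 3.44% and 3.88% in RuxP and 5.52% and 5.68% in FedP. They made up 7.89% and 8.40% in DMSO cells at 24 h and 11.9% to 15.7% in DMSO cells at 4 h and 48 h. Per length FEV was the most abundant member in both lines, with a mean of 10.7 in RuxP and 19.3 in FedP, which placed it at rank 9 and rank 8 of the family. It stood at rank 20 in parental cells. ETV1 stayed at rank 19 to 23 in these 3 groups. ETS2, FLI1 or SPI1, the last a master factor of myeloid cells, had the highest level per length in each library of these groups.

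**Figure D2:**
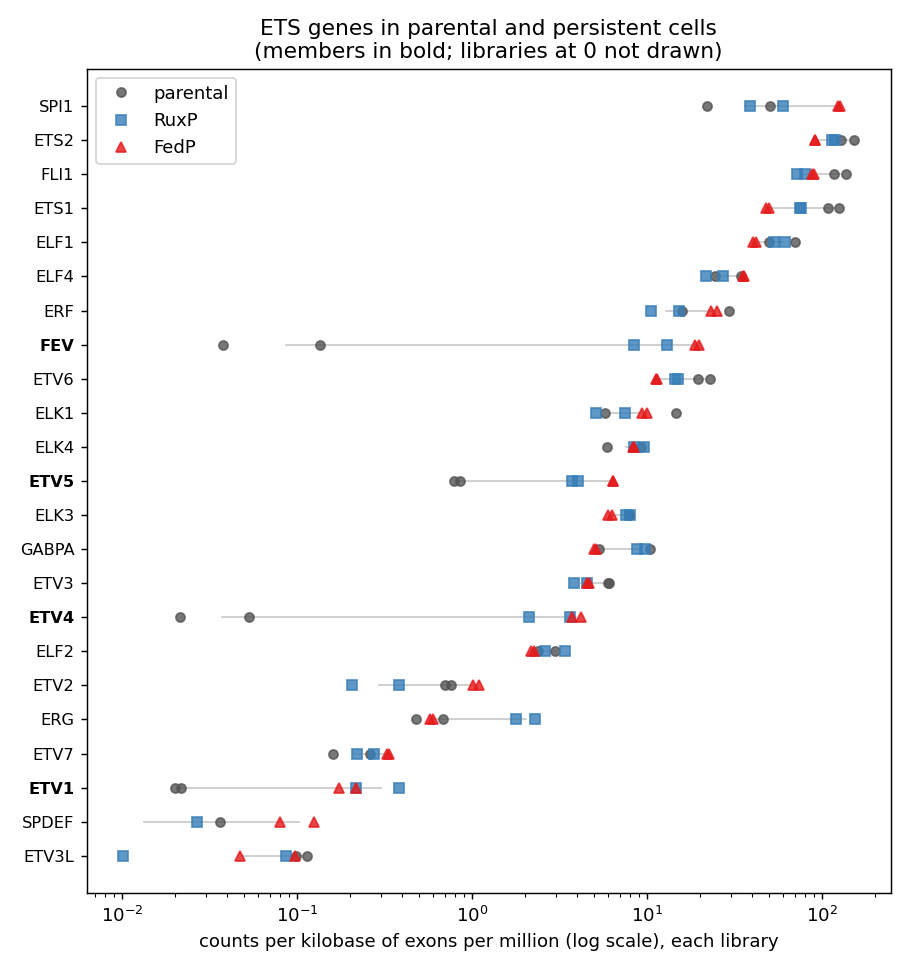
ETS genes in parental, RuxP and FedP libraries, in CPM per kilobase of exon on a log axis, with 1 symbol per library, the 4 members in bold and a grey line spanning the group means. FEV and ETV4 span more than a 10-fold range from parental to persistent cells, and no other gene with a mean above 1 spans as wide a range. The members were chosen on this step, so their wide range beside the other genes is set by the choice.

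Of 24 other ETS factors, 18 were tested in the persistent table. In RuxP 1 rose, 1 fell and 16 did not pass (median log2 -0.27, against -0.04 over all genes tested). ERG, an endothelial and stem cell ETS factor of FEV's own branch, was at 17.3 and 13.5 CPM in RuxP against 3.64 and 5.19 CPM in parental cells (log2 1.80, SE 0.249, adjusted p = 0.013). FLI1 fell in RuxP (log2 -0.74, SE 0.149, adjusted p = 0.041). In FedP none passed as higher, 2 fell and 16 did not pass (median -0.32, against 0.01). The values ran from -1.26 to 1.78, with 7 of 18 above 0. SPI1, singled out after its values were seen, did not pass but had a mean per length of 124 in FedP against 36.1 in parental cells. ETS1 fell in FedP (349 against 834 CPM, log2 -1.26, SE 0.145, adjusted p = 0.0093). ERG did not pass without RuxP replicate 1 (adjusted p = 0.086), FLI1 without either RuxP library (0.28 and 0.11) or with only the groups compared in the fit (0.16), and ETS1 without either FedP library (0.11 and 0.095).

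BI-D1870 for 24 h separated the members from each other. ETV4 fell most, from 49.5 and 41.5 CPM in DMSO to 7.90 and 8.21 CPM (log2 -2.49, SE 0.0899, adjusted p = 3.4e-14). ETV1 fell from 7.71 and 6.91 to 2.66 and 2.17 CPM (log2 -1.60, SE 0.162, adjusted p = 8.5e-08). FEV fell from 32.7 and 31.0 to 19.7 and 19.2 CPM (log2 -0.71, SE 0.0870, adjusted p = 1.1e-06). ETV5 went the other way, from 82.2 and 75.3 to 105 and 102 CPM (log2 0.40, SE 0.0524, adjusted p = 3.0e-06). ETV4, ETV1 and FEV were lower and ETV5 was higher in both treated libraries than in both DMSO libraries. The share of all genes without overlap was not computed for this comparison. All 4 passed, 3 lower and 1 higher, where 47.1% of all genes tested passed, so that a pass alone is common here. The 95% intervals of ETV4 (-2.68 to -2.31) and ETV5 (0.29 to 0.51) lie on opposite sides of 0, and all 4 calls held under each of the 10 alternatives, which include leaving out any 1 library of these groups. Of 19 other ETS factors tested, 2 rose, 10 fell and 7 did not pass (median log2 -0.15, against -0.01 over all genes). SPI1 fell by 1.48 on the log2 scale (SE 0.0557, adjusted p = 6.5e-14), ETS1 by 1.05 and FLI1 by 0.60. Markers of other states moved beside the members here: of 11 erythroid markers 2 rose and 8 fell (sums of 4832 and 4941 CPM in DMSO, 3831 and 3999 CPM in BI-D1870), of 6 megakaryocyte markers 1 rose and 5 fell (1868 and 1863 to 1583 and 1584 CPM), and both lymphoid markers tested fell (20.1 and 21.3 to 5.15 and 5.12 CPM). The part of these markers in the members' changes was not tested.

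With BCI added to BI-D1870 the same order held against DMSO. ETV4 was at 10.3 and 9.92 CPM (log2 -2.17, SE 0.0863, adjusted p = 1.3e-13), ETV1 at 2.24 and 2.04 CPM (log2 -1.77, SE 0.161, adjusted p = 1.8e-08) and ETV5 at 118 and 108 CPM (log2 0.52, SE 0.0521, adjusted p = 7.6e-08). FEV was at 27.0 and 21.5 CPM (log2 -0.39, SE 0.0847, adjusted p = 6.9e-04), and did not pass without replicate 2 of the combination (adjusted p = 0.076). All 4 passed, with 46.8% of all genes, and both comparisons share the DMSO libraries. Set directly against BI-D1870 alone, 1 of 4 members passed, with 4.71% of all genes (2.22% higher and 2.48% lower). FEV was higher in the combination (log2 0.32, SE 0.0872, adjusted p = 0.040), a call that was lost with DESeq2 (0.052) and without any 1 of 3 libraries, both of BI-D1870 and replicate 1 of the combination (highest adjusted p = 0.54). ETV4 lay at 0.33 (95% interval 0.13 to 0.53, adjusted p = 0.058), ETV5 at 0.12 (0.01 to 0.23, adjusted p = 0.23) and ETV1 at -0.17 (-0.53 to 0.19, adjusted p = 0.70).

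**Figure D3:**
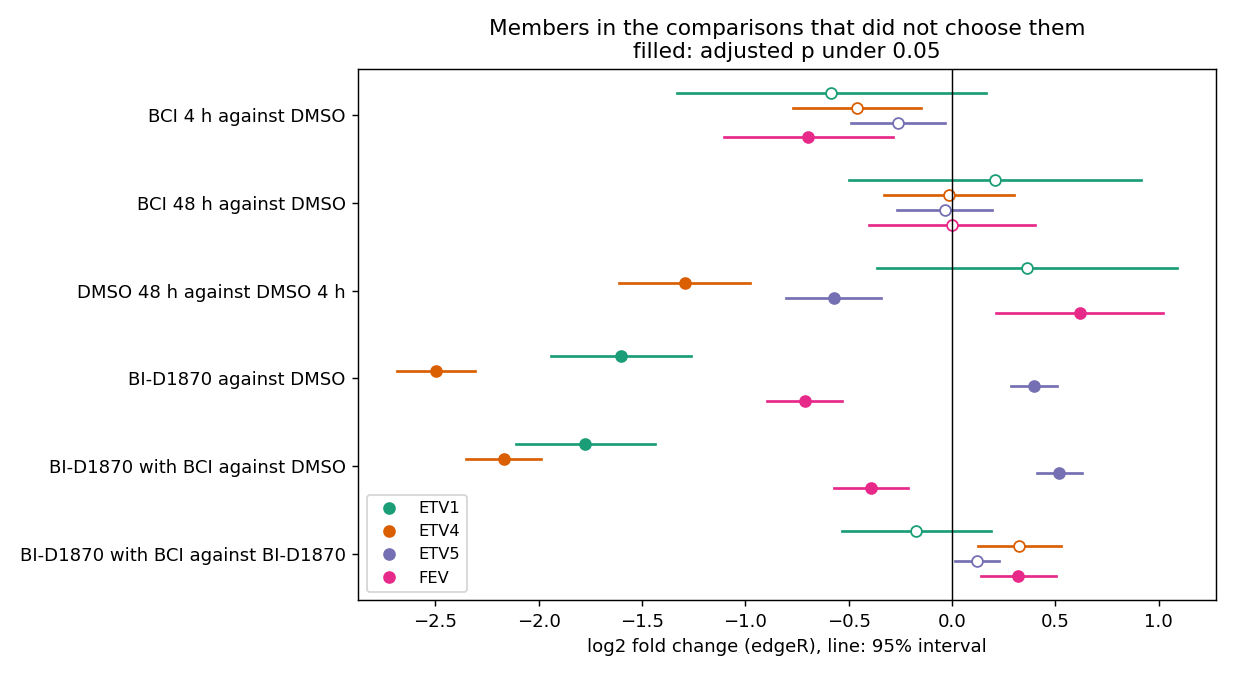
Log2 fold change of each member with its 95% interval in the 6 comparisons that did not choose the members, filled where the adjusted p was under 0.05. ETV4 lies between -2.49 and -2.17 and ETV5 between 0.40 and 0.52 in the BI-D1870 comparisons with DMSO, and every interval at BCI 48 h spans 0.

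With BCI alone the members' log2 values lay between -0.70 and -0.26 at 4 h, where 1 passed, and none passed at 48 h. At 4 h FEV was at 44.0 and 43.2 CPM against 66.6 and 74.6 CPM in DMSO (log2 -0.70, SE 0.181, adjusted p = 0.040). It was the 1 of 4 members that passed, where 10.7% of all genes passed (4.8% higher and 5.94% lower), and leaving out any 1 of the 4 libraries ended the call (highest adjusted p = 0.26). ETV4 was at 61.3 and 64.9 CPM against 85.4 and 88.2 CPM (log2 -0.46, SE 0.138, adjusted p = 0.068), and passed in some other fits, such as DESeq2 (0.012). ETV5 lay at 79.4 and 81.1 CPM against 93.8 and 98.6 CPM (log2 -0.26, adjusted p = 0.15). ETV1 overlapped, with 0.907 and 1.75 CPM against 2.32 and 1.67 CPM (log2 -0.58, adjusted p = 0.34). The 4 values were negative, with a median of -0.52 against 0.02 over all genes tested.

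At 48 h edgeR called 0% of genes, with 316 of 21908 at an unadjusted p under 0.05, and DESeq2 called none, with 238. No member passed. FEV was at 128 and 89.1 CPM in BCI and 126 and 91.0 CPM in DMSO, so that library 1 was high in both groups (log2 -0.00, 95% interval -0.40 to 0.40). The fit did not pair libraries, so a difference shared by both groups enters the intervals at 48 h. ETV4 was at 38.3 and 31.8 against 40.6 and 30.2 CPM (-0.01, interval -0.33 to 0.30). ETV5 was at 57.1 and 69.1 against 61.5 and 67.8 CPM (-0.04, interval -0.26 to 0.19). ETV1 was at 3.40 and 2.51 against 2.91 and 2.21 CPM (0.21, interval -0.50 to 0.91). The response at 48 h minus that at 4 h passed for 0 of 4 members (3.46% of all genes passed, 2.08% higher and 1.37% lower), and was largest in ETV1 (0.79, adjusted p = 0.43) and FEV (0.69, 95% interval 0.12 to 1.27, adjusted p = 0.19). FEV passed with DESeq2 (adjusted p = 0.037), without a low-count filter (2.2e-04) and without replicate 1 of DMSO at 48 h (0.023).

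The members also differed in direction between DMSO at 4 h and DMSO at 48 h. From 4 h to 48 h ETV4 fell from 85.4 and 88.2 to 40.6 and 30.2 CPM (log2 -1.29, SE 0.141, adjusted p = 3.7e-04). ETV5 fell from 93.8 and 98.6 to 61.5 and 67.8 CPM (log2 -0.57, SE 0.102, adjusted p = 0.0034). FEV rose from 66.6 and 74.6 to 126 and 91.0 CPM (log2 0.62, SE 0.180, adjusted p = 0.032), but not past the threshold without either library of 4 h or replicate 1 of 48 h (adjusted p = 0.20, 0.11 and 0.14). ETV1 did not pass (log2 0.36, adjusted p = 0.46). Thus 3 of 4 members passed, with 26.6% of all genes. ETV4 and FEV thus moved in opposite directions between DMSO at 4 h and at 48 h. Time in DMSO cannot be told apart here from other differences between these cultures. The DMSO libraries of 4 h also served as controls of BCI at 4 h.

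ERK output genes, 18 feedback and early target genes of the pathway, are given beside the members. In BI-D1870 4 rose, 4 fell and 5 of 13 tested did not pass (median log2 0.11, against -0.01 over all genes). CCND1 fell from 6.50 and 6.54 to 1.24 and 0.993 CPM (log2 -2.55, SE 0.194, adjusted p = 1.6e-09), close in size to ETV4. The ERK inhibitor SPRY1 also fell (log2 -2.05). DUSP6 rose (0.41, adjusted p = 4.8e-05), as did the early gene EGR1 (1.08, adjusted p = 5.5e-10), the direction of ETV5. In BCI at 4 h 1 rose, 4 fell and 12 did not pass (median -0.24, against 0.02). The values ran from -1.68 to 2.26, with 7 of 17 above 0. Among the falls, CCND1 was at -1.68, SPRY1 at -0.82 and SPRED1, a RAS-ERK inhibitor, at -0.44. DUSP6, whose product BCI inhibits, fell from 28.0 and 26.8 to 14.0 and 13.3 CPM (adjusted p = 4.1e-04). SPRY1 and SPRED1 lost their calls when any 1 library was omitted (highest adjusted p = 0.092 and 0.12).

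In RuxP 3 ERK output genes rose, none fell and 11 of 14 did not pass (median 0.65, against -0.04). In FedP 4 rose, none fell and 10 did not pass (median 0.92, against 0.01). CCND1 was at 3.02 and 2.96 CPM in RuxP and 5.32 and 5.41 CPM in FedP against 0.557 and 0.349 CPM in parental cells (log2 2.71, SE 0.317, adjusted p = 0.0078, and 3.56, SE 0.322, adjusted p = 0.0052). Here and under BI-D1870 it is below the abundance used to pick genes and was singled out after its values were seen. In RuxP it missed the threshold without RuxP replicate 1 (0.053) and with only the groups compared in the fit (0.057), and in FedP it passed with any 1 library left out (highest adjusted p = 0.020). SPRED2, another RAS-ERK inhibitor, rose in RuxP (log2 0.89, adjusted p = 0.027) and FedP (1.11, adjusted p = 0.015), and was lost without either library of the line (highest adjusted p = 0.11 and 0.18) and, in RuxP, with only the groups compared (0.12).

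**Figure D4:**
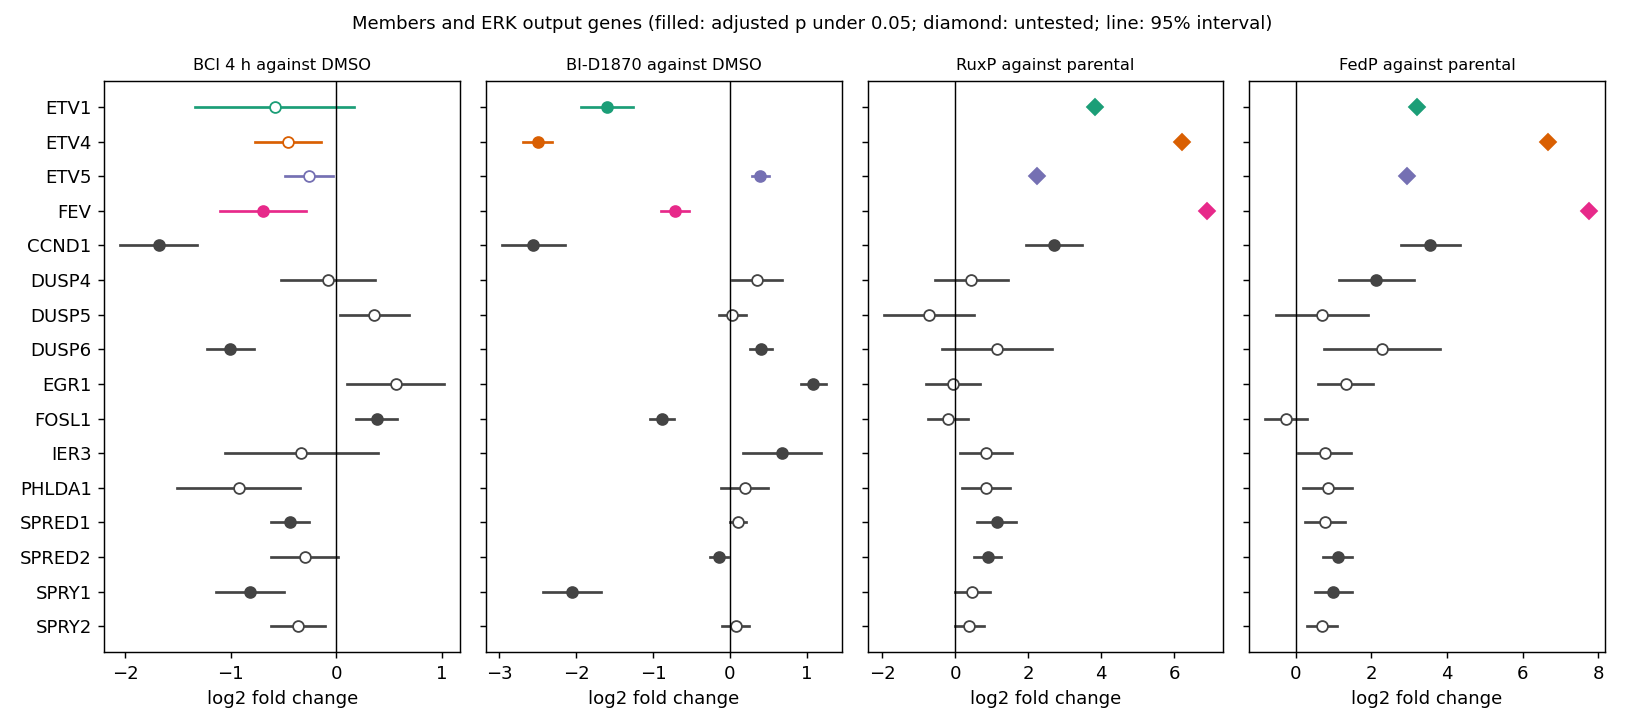
Log2 fold change of the 4 members and of ERK output genes in 4 comparisons, with 95% intervals, filled where the adjusted p was under 0.05 and diamonds for the untested members in the persistent lines. Under BI-D1870 the genes split, with CCND1, ETV4 and SPRY1 at -2.05 or lower and EGR1 at 1.08.

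Of the genes of the RAS-RAF-MEK-ERK core, in BI-D1870 6 rose, 6 fell and 5 of 17 did not pass, over a range of log2 -0.59 to 0.35. In BCI at 4 h 0 of 17 passed, in RuxP 1 rose and 16 did not pass, and in FedP 0 of 17 passed. Repressors and ubiquitin ligase genes of PEA3 factors had 5 higher, 5 lower and 2 not passing of 12 under BI-D1870. TRIB1, an adaptor of the COP1 ligase, fell from 137 and 131 to 52.3 and 57.5 CPM (log2 -1.29, SE 0.0510, adjusted p = 1.3e-13). TRIB1 fell in BCI at 4 h too (log2 -0.74, SE 0.0902, adjusted p = 0.0012). In RuxP 0 of the 12 passed, and in FedP 1 rose and 11 did not pass. The 1 was TRIB1, at 109 and 109.8 CPM against 59.6 and 69.6 CPM in parental cells (log2 0.76, SE 0.155, adjusted p = 0.042), opposite to its falls under BI-D1870 and BCI. That call was lost without either FedP library (highest adjusted p = 0.41) and with only the groups compared (0.092). CIC was at 253 and 110.2 CPM in parental cells, 98.8 and 129 CPM in RuxP and 202 and 195 CPM in FedP, so the groups overlapped.

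Reporter and partner genes of PEA3 factors had 1 higher, 3 lower and 2 not passing of 6 under BI-D1870, and 0 of 8 passed in RuxP or in FedP. Of the matrix metalloproteinases listed, MMP1, MMP7 and MMP13 had at most 2 counts in any library. Under BI-D1870 the means of MMP2 (1.16 to 1.71 CPM) and MMP14 (116 to 126 CPM) were higher. Those of the listed genes PLAUR, VIM, PTGS2 and MED25 were lower. These genes are named whether or not they passed. Of 12 serotonergic genes linked to FEV, 7 were tested in each table. TPH2, which makes serotonin in neurons, had 0 to 10 counts in every library, and the serotonin transporter gene SLC6A4 had 0 to 43. In RuxP 0 of 7 passed, and in FedP the monoamine oxidase gene MAOA rose (24.4 against 7.57 CPM, log2 1.69, SE 0.185, adjusted p = 0.0086), but not past the threshold without FedP replicate 1 (0.053). Under BI-D1870 3 of the 7 rose, 2 fell and 2 did not pass (median log2 0.24, against -0.01 over all genes). The means were higher for TPH1 (0.607 to 1.43 CPM), GCH1 (3.27 to 5.66 CPM) and GATA2 (996 to 1233 CPM) and lower for SLC18A2 (31.7 to 19.9 CPM). MAOA fell (15.5 and 14.6 to 5.80 and 5.03 CPM, log2 -1.48, SE 0.112, adjusted p = 1.7e-09). GATA2, a blood and serotonergic transcription factor, fell in BCI at 4 h (1328 and 1364 to 551 and 549 CPM, log2 -1.29, SE 0.0690, adjusted p = 1.3e-05).

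Markers of other states moved beside the members in the persistent table too. Of 6 megakaryocyte markers 4 fell in each line, and their sum was 4080 and 2713 CPM in parental cells, 1252 and 1553 CPM in RuxP and 2508 and 2433 CPM in FedP. Of 11 erythroid markers 1 rose and 4 fell in RuxP and none passed in FedP, with sums of 3174 and 2003, 1265 and 1416, and 2471 and 2401 CPM. Neuronal markers summed to 5.48 and 4.61 CPM in parental cells, 13.4 and 10.9 CPM in RuxP and 10.8 and 11.6 CPM in FedP, nearly all of it the synaptic vesicle gene SYP. SYP, chosen after its values were seen, rose from 4.75 and 4.36 CPM to 12.6 and 10.5 CPM in RuxP (log2 1.34, SE 0.186, adjusted p = 0.014) and 10.1 and 10.8 CPM in FedP (adjusted p = 0.020), and was lost in RuxP without replicate 1 (0.085) and with only the groups compared (0.060), and in FedP without either library (0.17 and 0.22). The part of these markers in the members' levels was not tested.

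The protein-coding genes next to the members were compared with them. DGKG, a diacylglycerol kinase gene on the same strand, shares 164 exon bases (2.83%) with ETV5. DGKG was singled out after its values were seen. It fell under BI-D1870, from 8.82 and 10.0 to 5.07 and 4.98 CPM (log2 -0.91, SE 0.123, adjusted p = 3.9e-06), while ETV5 rose. DHX8, an RNA helicase gene on the opposite strand, shares 68 exon bases (1.89%) with ETV4. It lay between 99.2 and 109 CPM in all libraries of the BI-D1870 table, over which ETV4 ranged from 7.90 to 49.5 CPM. Whether counting used strand is unknown here, so reads in these shared stretches cannot be assigned. TRA2B, a splicing factor gene next to ETV5, was at 107 and 138 CPM in parental cells, 191 and 183 CPM in RuxP and 92.4 and 93.2 CPM in FedP. DGKB, MEOX1, CDK5R2 and CRYBA2 were at 0.853 CPM or less in every library.

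Across all 20 libraries, each taken relative to its own controls on a log2(CPM + 1) scale, the members resembled each other with Pearson r from 0.64 (ETV1 with ETV5) to 0.96 (ETV1 with ETV4). Libraries share tables and controls, and the step from parental to persistent cells enters each coefficient. The members were chosen on that step, so a high r between members is partly set by the choice. ETV4 and ETV5, which moved in opposite directions under BI-D1870, still had r 0.77. All these coefficients are descriptions without a p. The genes most like FEV were ACACB (r 0.993), CD33, SIGLEC10, SEPTIN8 (listed as a date in the tables and matched by its gene ID) and PCTP, CD33 and SIGLEC10 being sialic acid receptors of blood cells. ETV4 was most like ARMH1 (0.991), FAM83A, WDFY4, CPPED1 and SLC39A8. ETV5 was most like PYGL (0.987), TIAM1, RNF130, PCTP and CYFIP2. Among the genes most like ETV1 were ACSL4 (0.984), STXBP6, LEF1 and GPR65. PCTP, a lipid transfer protein gene, was among the 5 genes most like both ETV5 and FEV.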

How the data were processed

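Per the labels' protocols, RNeasy columns with DNase gave the HEL cell RNA, and a NovaSeq 6000 read the libraries. The authors deposited 3 tables of raw counts per gene, 1 column a library; the submitters' processing notes name bcl2fastq, STAR 2.5.1a, GRCh38 and edgeR. Strand and multi-mapping settings were not given in the sources used here. Column headings of the BCI table say 24 h where the labels say 48 h, and the labels were followed. The members and gene lists were chosen with earlier results of these data known.

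Each table was fitted alone with edgeR 4.0.16 (R 4.3.3): filterByExpr by group, TMM scaling, all groups in 1 quasi-likelihood fit, Benjamini-Hochberg adjustment over 21908 (BCI), 21328 (BI-D1870) or 15924 (persistent) genes, threshold 0.05. Libraries held 63916850 to 84452743, 54141164 to 70128404 and 51799814 to 79755715 counts. With 2 libraries a group, residual degrees of freedom were 4, 3 and 3, and the biological coefficient of variation was 13.3%, 5.01% and 26.9%. Fold changes and their standard errors come from this fit, and CPM and levels per kilobase use TMM library sizes and GENCODE 29 exon lengths. Scripts were tested on simulated data. No library duplicated another. Of deposited counts from 1 to 20, 66.8% to 69.4% were even, so 1 fragment may often have given 2 counts, and counting error may exceed what the counts imply.

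From each list, at most 4 genes a comparison were eligible to be named: those that passed, did not overlap between groups, had a mean of at least 4 CPM and the largest changes. The 5 genes most like each member and the neighbouring genes were named too. Of these, 2 genes are not reported here. Exceptions are given where they occur. Alternatives were DESeq2 size factors, no low-count filter, DESeq2 1.42.0, a replicate block, only the groups compared, and each library left out.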

Additional observations from a re-analysis of the deposited data

Results flagged for a closer look

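The BCI response at 48 h differed from that at 4 h, by the test of the difference itself, in 5 genes of the ERK output, repressor and ligase, and serotonergic lists, each lower at 4 h and nearer DMSO at 48 h. The log2 difference (48 h minus 4 h) was 1.66 for CCND1 (SE 0.222, edgeR adjusted p = 0.0053), 0.98 for DUSP6 (adjusted p = 0.0072), 0.50 for SPRED1 (0.044), 0.70 for TRIB1 (0.019) and 1.24 for GATA2 (3.1e-04). GATA2 passed in all 12 alternatives. CCND1 missed the threshold without replicate 2 of DMSO at 4 h (adjusted p = 0.055), DUSP6 and TRIB1 without any 1 of the 4 h libraries (highest 0.072 and 0.14), and SPRED1 in 6 of 8 fits with 1 library left out (highest 0.26). Outside these lists the erythroid factor gene KLF1 (0.89, adjusted p = 0.031) and DGKG, the neighbour of ETV5 (-0.83, adjusted p = 0.030), passed as well, and each was lost in 5 of 8 fits with 1 library left out (highest adjusted p = 0.18 and 0.19). No member of the PEA3 group passed this test, nor did FEV.

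ERG differed between the persistent lines, lower in FedP (4.55 and 4.37 CPM) than in RuxP (17.3 and 13.5 CPM), with a log2 difference of -1.79 (edgeR adjusted p = 0.036). It missed the threshold without any 1 of the 4 libraries (highest adjusted p = 0.24) and with a replicate block (0.14).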

How the results depend on the processing

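No result reversed. Genes called (main counts 2354 for BCI 4 h, 0 for BCI 48 h, 757 for 48 minus 4 h, 1026 for RuxP, 1055 for FedP, 222 for FedP against RuxP) moved as follows. Without a low-count filter they were 27 for BCI 48 h, 1658 for 48 minus 4 h, 1836 for RuxP, 1818 for FedP and 2886 for FedP against RuxP. With DESeq2 they were 1361 for 48 minus 4 h, 2398 for RuxP, 2496 for FedP and 3588 for FedP against RuxP. With only the groups compared they were 5691 for BCI 4 h, 419 for RuxP, 568 for FedP and 5783 for FedP against RuxP. With a replicate block they were 1166 for 48 minus 4 h, 324 for RuxP, 272 for FedP and 0 for FedP against RuxP. The labels do not say that a number marks a shared culture. With 2 numbers the correlation of replicate differences between groups ran from -0.685 (parental with RuxP) to 0.822 (DMSO with BCI at 48 h). The main fit therefore did not use the block. A shift shared by libraries of the same number thus counts as spread in the intervals given for BCI at 48 h. No member passed in that comparison with the block. With it, the RuxP calls of ERG (adjusted p = 0.053), FLI1 (0.15), SPRED2 (0.11) and SYP (0.056) and the FedP calls of SPRED2 (0.071), SYP (0.072) and TRIB1 (0.13) missed the threshold. With crossed numbers, chosen after seeing the data, 2282 genes were called for RuxP and 4059 for FedP against RuxP. With 1 library left out, genes called ranged from 555 to 693 for BCI 4 h, 88 to 1705 for 48 minus 4 h, 2498 to 6017 for DMSO 48 h against 4 h (main 5837), 325 to 565 for BI-D1870 with BCI against BI-D1870 (main 1004), 170 to 4157 for RuxP, 197 to 5293 for FedP and 0 to 0 for FedP against RuxP. The cause was not tested.

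Members called were 1 for BCI 4 h, and 2 with no filter, 2 with DESeq2, 2 with the block, 3 with only the groups compared and 0 to 0 with 1 library left out. For 48 minus 4 h they were 0, and 1 with no filter, 1 with DESeq2 and 0 to 2 with 1 library left out. For the combination against BI-D1870 they were 1, and 2 with no filter, 0 with DESeq2, 2 with the block and 0 to 1 with 1 library left out. Parental counts of 4 to 16 for FEV, ETV4 and ETV1 limit the size of their ratios in the persistent lines.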
